A study of Mus musculus with 16 samples.

Results

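Far intergenic regions were the stretches of open chromatin in activated mouse B cells that lay outside genes and well away from any annotated start of transcription. The peaks of 8 ATAC-seq libraries, called where the Tn5 transposase had cut open chromatin, were joined into 16566 combined regions wherever they touched or overlapped. Each region was placed by its centre on GRCm38 (mm10) with the GENCODE annotation, as promoter, transcription termination site, exon, intron or intergenic, in that order. Of 2846 intergenic regions, 1061 had at most 50% soft-masked (repeat) bases and a centre more than 10 kb from the nearest transcription start site (TSS), which is 6.405% of all combined regions. No measured signal entered this choice, apart from the calling of the peaks themselves.

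The B cells were purified from mouse spleen and activated in culture with LPS (10 µg/mL), a ligand of TLR4, and IL-4 (20 ng/mL). A library took 50000 cells. The sample labels give 72 hours of activation and the design text 96 hours. All 8 libraries came from CD23-Cre +/- mice, 4 from Brg1fl/+ and 4 from Brg1fl/fl mice, aged 7 to 14 weeks by the study's methods. Those methods name C57BL/6 for wild-type mice and do not give the background of these crosses. CD23-Cre acts in mature B cells, so that the Brg1fl/+ cells lose 1 allele of Smarca4, the gene of Brg1, and the Brg1fl/fl cells lose both, and no library with intact alleles was analysed here. Peak lists hold no transcript levels, so the deletion itself and the B cell identity of the libraries could not be checked on RNA. Nothing states that the 4 libraries of a genotype came from separate mice, so that p-values measure only the spread between libraries, which may be technical. The names of the deposited lists group replicates 1 with 2 and 3 with 4 of each genotype, so that each genotype may hold 2 pairs of related libraries rather than 4 separate ones, and 2 pairs against 2 cannot reach 0.05.

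Brg1 is the ATPase of the SWI/SNF (BAF) chromatin remodelling complexes, which move or evict nucleosomes and so open DNA to transcription factors. Open chromatin far from genes often marks enhancers, which in B cells are bound by lineage factors such as PU.1, EBF1 and E2A and by factors that signals bring in, such as NF-kB after TLR4, STAT6 after IL-4 and AP-1 on activation. It can also mark insulators bound by CTCF and starts of transcripts that an annotation leaves out, among them genes of RNA polymerase III.

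The 12 sequences printed here show the kinds of DNA found among these regions. Each is the forward strand of GRCm38 at the summit of the strongest peak of the region, with 50 bases on either side. Those named for Galc, G6pd2, Wnt7b and Foxk1 and that of the array belong to the regions that ranked highest in all 8 libraries, and the other 7 were chosen after their values were seen: a region at a tRNA gene, a region near a B cell gene, 3 regions found in all Brg1fl/+ and no Brg1fl/fl library, and 2 regions whose fold was higher in Brg1fl/fl libraries. Capitals mark letters of a motif of the 18 searched on both strands.
chr12:97061434-97061786 (nearest coding gene Galc): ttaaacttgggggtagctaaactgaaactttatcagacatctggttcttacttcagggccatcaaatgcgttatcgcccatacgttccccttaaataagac
chr5:60042733-60043085 (nearest coding gene G6pd2): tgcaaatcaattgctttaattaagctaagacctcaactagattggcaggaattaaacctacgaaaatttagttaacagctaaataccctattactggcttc
chr6:47752705-47753422 (4.5S RNA array): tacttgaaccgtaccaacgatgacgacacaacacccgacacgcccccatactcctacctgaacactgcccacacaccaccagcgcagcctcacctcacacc
chr14:76152270-76152952 (tRNA gene n-TEttc6): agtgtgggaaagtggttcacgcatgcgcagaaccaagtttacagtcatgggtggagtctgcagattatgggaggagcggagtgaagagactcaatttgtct
chr15:85634406-85635081 (nearest coding gene Wnt7b): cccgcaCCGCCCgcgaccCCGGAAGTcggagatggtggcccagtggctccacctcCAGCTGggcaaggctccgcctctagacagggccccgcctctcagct
chr5:142367226-142367969 (nearest coding gene Foxk1): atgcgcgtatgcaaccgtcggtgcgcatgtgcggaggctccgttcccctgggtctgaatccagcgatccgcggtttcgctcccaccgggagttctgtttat
chr10:78092440-78093022 (nearest coding gene Icosl): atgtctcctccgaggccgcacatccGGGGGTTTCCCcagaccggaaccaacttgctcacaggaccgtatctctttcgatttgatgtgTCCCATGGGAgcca
chr5:96979968-96980659 (nearest coding gene Bmp2k): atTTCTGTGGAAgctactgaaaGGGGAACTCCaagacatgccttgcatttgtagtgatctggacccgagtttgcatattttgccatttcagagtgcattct
chr1:156956344-156956630 (nearest coding gene Ralgps2): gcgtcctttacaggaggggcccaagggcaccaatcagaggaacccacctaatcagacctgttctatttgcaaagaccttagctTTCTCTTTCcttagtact
chr7:82109275-82109535 (nearest coding gene Sh3gl3): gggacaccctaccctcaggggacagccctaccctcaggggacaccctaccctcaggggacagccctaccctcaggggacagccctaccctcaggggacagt
chrX:94177795-94178274 (nearest coding gene Eif2s3x): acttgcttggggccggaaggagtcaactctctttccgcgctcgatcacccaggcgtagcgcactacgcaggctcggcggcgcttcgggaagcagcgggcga
chr11:5168576-5170353 (nearest coding gene Emid1): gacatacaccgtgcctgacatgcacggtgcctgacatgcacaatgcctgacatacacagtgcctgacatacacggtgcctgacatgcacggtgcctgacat
The capitals mark an NF-kB and an EBF1 match near Icosl, a STAT6 and an NF-kB match near Bmp2k, an IRF match near Ralgps2, and an SP1, an ETS and an E2A match near Wnt7b. The Sh3gl3 and Emid1 windows are tandem repeats: shifted by 19 and 48 bases, they matched themselves at 79.27% and 92.45% of positions, against 48.21% at most at any shift of 5 to 50 bases in the other windows examined. The 3 windows with the most CG pairs printed here were those near Eif2s3x with 13, Foxk1 with 12 and Wnt7b with 8, against 1 in each of the Bmp2k and Ralgps2 windows and 0 in the Sh3gl3 repeat.

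The far intergenic regions were spread over the 19 autosomes, X and Y, with 95 on chromosome 2 and 3 on Y. Their median distance to the nearest TSS was 21434 bp (range 10002 to 282804 bp), and to the nearest TSS of a protein-coding gene 44853 bp. For 157 regions the distance exceeded 50 kb and for 39 regions 100 kb. The nearest TSS belonged to a protein-coding gene for 437 regions, to a processed pseudogene for 224, to a lincRNA for 181 and to other types for 219. Regions were 199 to 3108 bp wide, with a median of 382 bp. The sequence up to 100 bp on either side of the summit had another copy in the genome (at least 98% identity over 90% of its length) for 110 regions, or 10.37%, against 2.101% of promoters, and 951 regions had a single copy. These copies matter for ATAC-seq because reads that align equally well to several places cannot be assigned to one of them. In 3 regions more than 20% of the sequence consisted of 15-base words of the mitochondrial genome.

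Most far intergenic regions were detected in few libraries. A region counted as detected where a peak of that library's list overlapped it. Of the 1061 regions, 563 (53.06%) were detected in 1 library, 222 in 2, 79 in 3, 46 in 4, 38 in 5, 29 in 6, 18 in 7 and 66 in all 8. Of the 563 found in 1 library, 428 were found only in Brg1fl/+ replicate 1, which had the longest list. The share found in all 8 libraries was 6.221%, against 42.69% of promoters, 7.380% of near intergenic regions (intergenic, at most 50% masked, within 10 kb of a TSS) and 2.134% of deep intronic regions (intronic, at most 50% masked, more than 10 kb from a TSS).

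**Figure D1:**
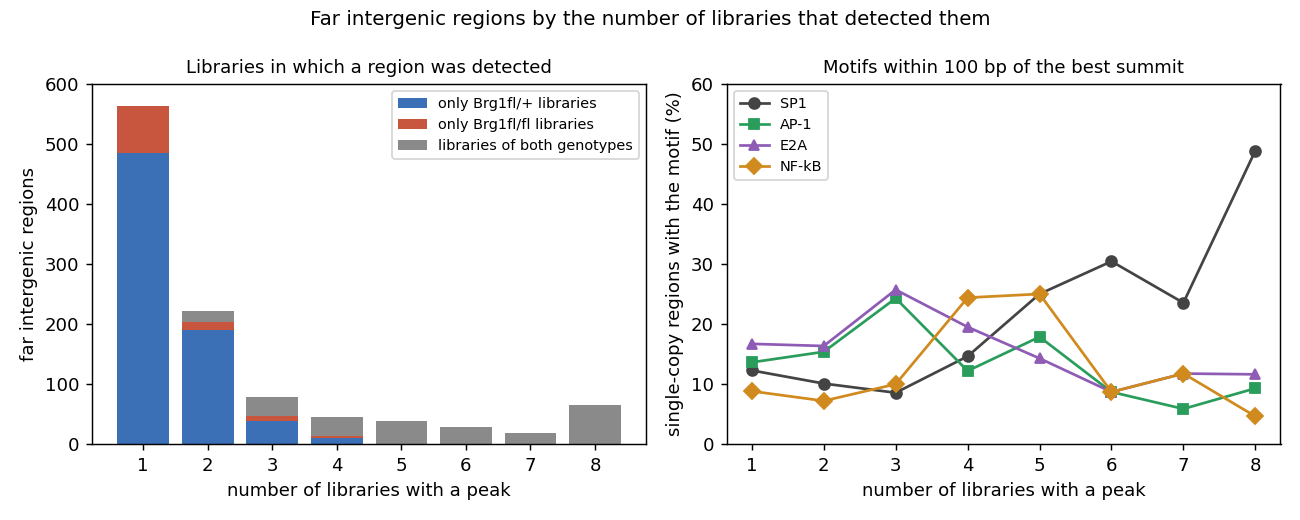
Left, number of far intergenic regions (y axis) by the number of libraries that detected them (x axis), split by genotype: 563 regions were found in 1 library and 66 in all 8. Right, share in percent of single-copy regions with 4 motifs within 100 bp of the summit of the strongest peak, by the same count of libraries: the SP1 line ends at 48.84% and the NF-kB line peaks at 25.00% in 5 libraries, over groups of 521 regions (1 library) down to 17 (7 libraries).

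The widely detected regions differed in sequence from those seen once. Among single-copy regions, the median width was 289 bp for those in 1 library and 681 bp for those in all 8, the median fold at the summit over the local background (the ratio deposited with each peak) was 5.048 and 10.49, and the median GC content of the same window around the summit was 49.75% and 64.68%. The CpG dinucleotide ratio, observed over expected, was 0.2922 and 0.7331. The GC box bound by SP and KLF factors (GGGCGG), a usual element of CpG-rich promoters, was present in 12.28% of the 521 single-copy regions found in 1 library and in 48.84% of the 43 found in all 8. The AP-1 motif (TGANTCA) ran differently: it was present in 13.63% of the regions in 1 library, 24.29% of the 70 in 3 libraries and 9.302% of those in all 8. NF-kB motifs were present in 8.829% of regions in 1 library, 24.39% of the 41 regions in 4, 25.00% of the 28 in 5 and 4.651% of the 43 in 8. These are descriptions of groups defined by detection, with no test, and stronger peaks are detected more often by construction.

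Detection of far intergenic regions varied more between the Brg1fl/+ libraries than between the genotypes. Brg1fl/+ replicates 1 to 4 detected 881, 474, 130 and 189 of the 1061 regions (83.03%, 44.67%, 12.25% and 17.81%). Brg1fl/fl replicates 1 to 4 detected 245, 132, 196 and 199 regions (23.09%, 12.44%, 18.47% and 18.76%). In Brg1fl/+, replicates 1 and 2, which the list names group together, both lay above replicates 3 and 4. The Brg1fl/fl values all lay within the range of the Brg1fl/+ values. The mean was 39.44% ± 32.33 (SD, n = 4) in Brg1fl/+ and 18.19% ± 4.377 (SD, n = 4) in Brg1fl/fl libraries, so that Brg1fl/fl libraries differed by -21.25 points (exact permutation test, two-sided, p = 0.400, smallest possible p 0.0286). Brg1fl/+ replicate 1 set the size of this difference: without it the difference was -11.40 points (exact permutation test, p = 0.6857) over the 639 regions that remained. The lists held 6271 to 14614 peaks and the lowest background estimated from them was 2.760 to 6.468 fragments per kb in Brg1fl/+ and 3.390 to 6.890 in Brg1fl/fl libraries. Brg1fl/fl replicate 1 had the highest background of all and 9216 peaks, Brg1fl/+ replicate 1 a slightly lower background and 14614 peaks.

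Cutting every list to its 6271 best peaks by q left 266 far intergenic regions. The Brg1fl/+ libraries then detected 121, 125, 129 and 129 of them and the Brg1fl/fl libraries 92, 135, 98 and 98. Brg1fl/fl replicates 1, 3 and 4 lay below all Brg1fl/+ libraries and replicate 2, whose list was the shortest, lay above them.

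**Figure D2:**
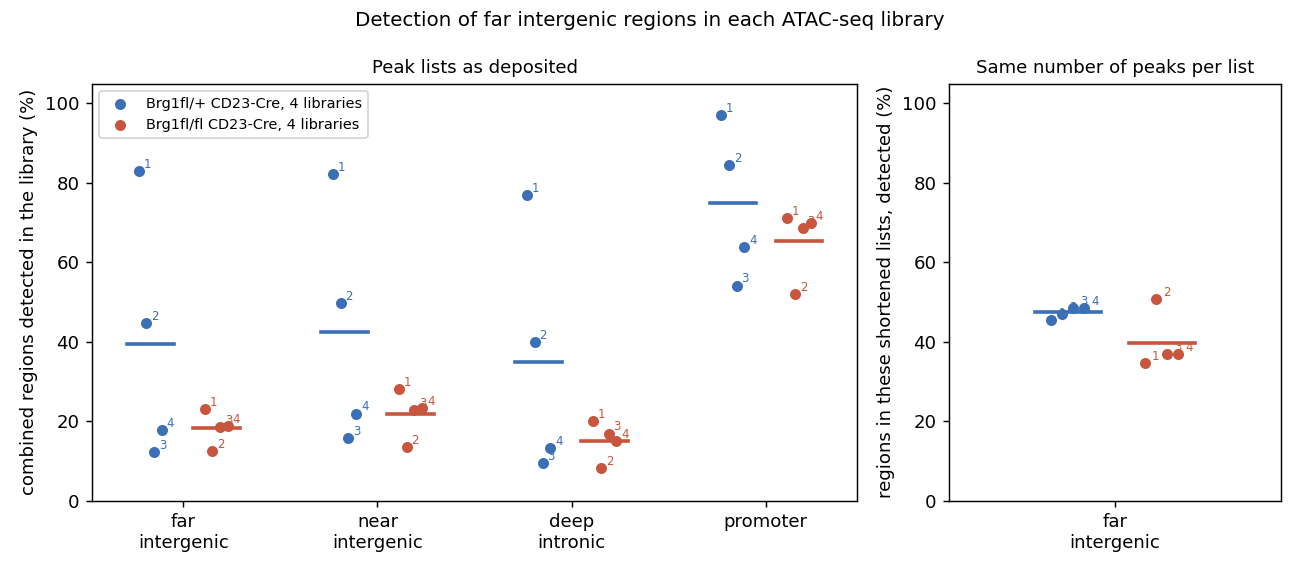
Percent of combined regions of 4 classes (x axis) that each library detected (y axis), with 4 Brg1fl/+ and 4 Brg1fl/fl libraries as numbered points and bars at the group means: far intergenic regions ranged from 12.25% to 83.03% in Brg1fl/+ and from 12.44% to 23.09% in Brg1fl/fl libraries. Right, the same for the 266 far intergenic regions of lists of 6271 peaks, detected at 45.49% to 48.50% in Brg1fl/+ and 34.59% to 50.75% in Brg1fl/fl libraries.

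As a share of each list, far intergenic peaks made up 6.035%, 4.210%, 2.103% and 2.568% of the peaks of Brg1fl/+ replicates 1 to 4 and 2.669%, 2.121%, 2.329% and 2.359% of those of Brg1fl/fl replicates 1 to 4. The means differed by -1.359 points (3.729% against 2.370%; exact permutation test, p = 0.2857). Within each library, detection of far intergenic regions was below that of promoters, with a mean gap of -35.47 points in Brg1fl/+ and -47.20 in Brg1fl/fl libraries, and this gap differed between genotypes by -11.73 points (exact permutation test, p = 0.1429). The gap to near intergenic regions differed by -0.7123 points (exact permutation test, p = 0.5714) and the gap to deep intronic regions by -1.386 points (exact permutation test, p = 0.1714). None of these 5 differences in detection passed 0.05. The direction of the last 2 turned under some other choices of regions, with the values given under the dependence on processing.

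In the deposited lists, far intergenic peaks were wider in Brg1fl/fl libraries, and this difference missed the threshold with lists of equal length. Their median width per library was 362.5, 330.0, 305.0 and 319.0 bp in Brg1fl/+ and 437.5, 400.0, 431.5 and 431.0 bp in Brg1fl/fl replicates 1 to 4, so that the groups did not overlap. The means were 329.1 ± 24.49 and 425.0 ± 16.93 bp (SD, n = 4 each), a difference of 95.88 bp (two-sided exact permutation test, p = 0.02857, the smallest possible). The call ended with equal list lengths (59.38 bp, exact permutation p = 0.2857), a −log10 q of at least 10 (84.25 bp, p = 0.05714), regions in at least 2 libraries (74.50 bp, p = 0.1429) and the replicate number as a block (p = 0.125, the smallest that 4 pairs allow). The shortest peak of each list was 195 to 204 bp in Brg1fl/+ and 231 to 243 bp in Brg1fl/fl lists, so the minimum length of a called peak moved with the genotype too, and its part in the difference was not tested. Widths of the other classes were not compared between genotypes, so the difference is not shown to be particular to far intergenic peaks. The fold at the summit of far intergenic regions relative to promoters, over the regions detected in all libraries, differed by -0.04371 on the log2 scale (exact permutation test, p = 0.2286).

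The peaks of highest rank belonged to a few unusual sequences. The best-placed region by its worst rank over the 8 lists, chr12:97061434-97061786, lay 40854 bp from the nearest TSS and 1181855 bp from Galc, its nearest protein-coding gene, and 95.58% of its sequence consisted of mitochondrial words. Its fold was 29.10, 30.40, 31.73 and 30.85 in Brg1fl/+ and 32.61, 32.67, 33.23 and 32.74 in Brg1fl/fl replicates 1 to 4. These deposited folds did not overlap, but after centring on each library's median they did, with 1.61 in Brg1fl/+ replicate 3 against 1.54 in Brg1fl/fl replicate 1 on the log2 scale. Another such region, chr5:60042733-60043085, with 71.68% mitochondrial words and G6pd2 as its distant coding neighbour, had folds of 31.96 to 36.88. Nuclear copies of mitochondrial DNA are known to collect reads from mitochondria in ATAC-seq, and the part of such reads in these 2 regions was not tested. Also among the 10 highest were chr3:5860385-5860825, of 70.15% GC with folds of 23.17 to 26.36, and chrY:90772018-90772905, which had 6 copies and folds of 10.65 to 16.68. The chromosome 3 sequence had 1 copy in the assembled chromosomes. Copies missing from these were not searched, and any resemblance to ribosomal RNA was not tested. Of the CpG-rich single-copy regions printed above, chr15:85634406-85635081, 52271 bp upstream of Wnt7b (a Wnt ligand), had folds of 13.79 to 17.08, and chr5:142367226-142367969, 33899 bp upstream of Foxk1 (a forkhead repressor), folds of 13.75 to 18.51. In both regions the genotypes overlapped.

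The other 4 of the 10 highest-ranked regions lay in a tandem array on chromosome 6. Between Ezh2 and Pdia4, 17 far intergenic regions stretched over 113.2 kb (chr6:47654893-47768077), and 15 of them were detected in all 8 libraries, which is 22.73% of the 66 regions with that property. Neighbouring summits of the repeat were a median of 4.336 kb apart (4.263 to 5.555 kb, leaving out a gap of the array without such regions). RefSeq places a gene of 4.5S RNA, a small rodent RNA made by RNA polymerase III, at chr6:47654921-47655094 on the minus strand, within the first of these regions. Copies of this 174-base gene with at least 90% identity were found in 14 of the regions, 11 of them identical, and the summits lay 55 to 171 bp upstream of the start of the copy (median 74 bp). The 15 regions had folds of 5.157 to 12.02, and each of them had 14 to 16 near-identical copies, so that values of single members cannot be told apart where reads align to several copies.

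The 2 regions of the array found only in Brg1fl/fl libraries held no copy of the gene. The region chr6:47753598-47754319 was found in Brg1fl/fl replicates 1, 2 and 3 with folds of 2.433, 2.895 and 2.295, and chr6:47760705-47761959 in all 4 with folds of 2.549, 2.849, 2.254 and 3.051. These folds were lower than those of the 15 regions found in all libraries.

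A tRNA gene lay at 16 other far intergenic regions. The GENCODE annotation used to place the regions leaves tRNA genes out, whereas RefSeq lists 403 of them, and 16 far intergenic regions had their centre within 1 kb of the start of such a gene. Like 4.5S RNA, tRNAs are made by RNA polymerase III, and their promoters lie within the gene. Of these 16, 12 were detected in both genotypes, 3 only in Brg1fl/+ and 1 only in Brg1fl/fl libraries. Brg1fl/+ replicates 1 to 4 detected 15, 13, 5 and 8 of them and Brg1fl/fl replicates 1 to 4 detected 10, 9, 12 and 11. The range in Brg1fl/fl libraries thus lay within that in Brg1fl/+ libraries, as it did for all far intergenic regions, but Brg1fl/fl libraries found more tRNA regions than Brg1fl/+ replicates 3 and 4. The regions found in all libraries were 4, at n-TEttc6 (a glutamate tRNA) with folds of 12.34, 13.31, 10.85 and 7.848 in Brg1fl/+ and 9.493, 5.828, 9.523 and 9.358 in Brg1fl/fl, at n-TGtcc3 with folds of 4.609 to 8.361, at n-TFgaa5 with 5.298 to 9.282 and at n-TPagg7 with 5.313 to 8.564. Each of these 16 regions had a single copy around its summit.

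**Figure D3:**
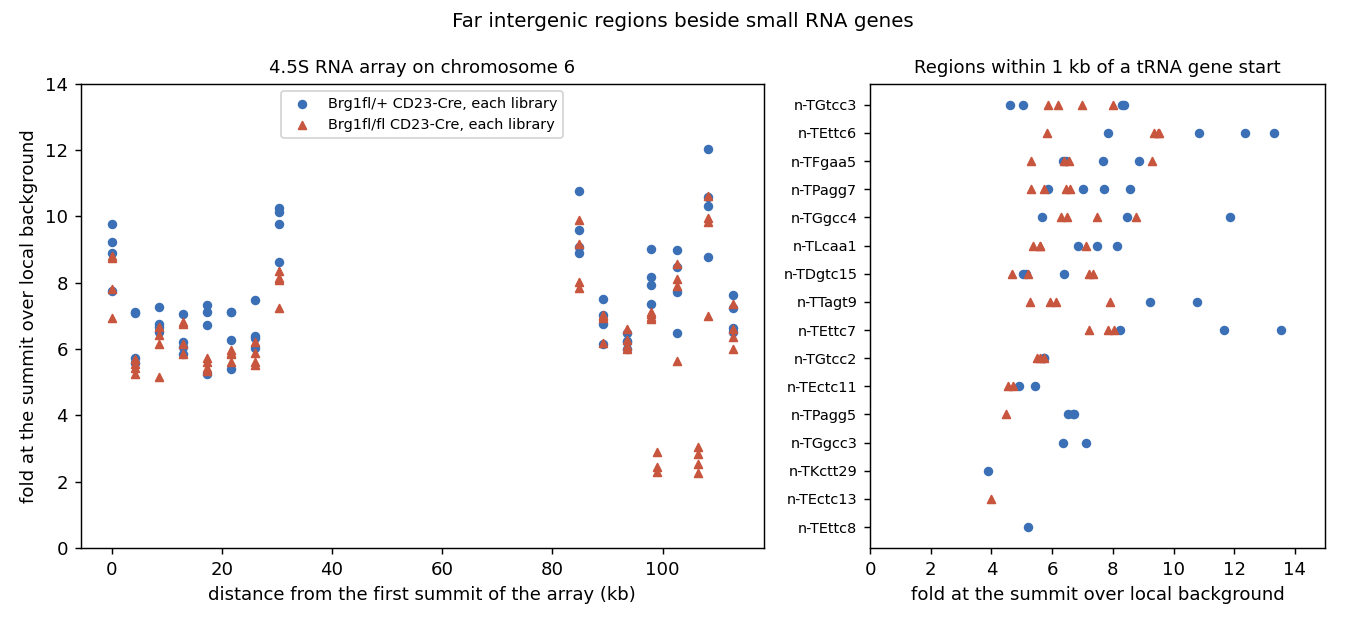
Left, fold at the summit over the local background (y axis) of the 17 far intergenic regions of the 4.5S RNA array, by distance in kb from the first summit, with a circle for each Brg1fl/+ and a triangle for each Brg1fl/fl library that detected the region: 15 regions lie between 5.157 and 12.02 and the 2 regions with triangles alone between 2.254 and 3.051. Right, the same fold for the 16 regions within 1 kb of a tRNA gene start, from 3.875 to 13.55.

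Counting every kind of RefSeq gene or transcript, 90 far intergenic regions lay within 1 kb of a start: 56 at long non-coding RNAs, 16 at tRNA genes, 14 at protein-coding genes or transcripts, 1 at the 4.5S RNA gene and 3 at others. Of these 90, 12 (13.33%) were found in all 8 libraries, against 54 (5.561%) of the other 971. So some far intergenic regions lay near starts that the placing annotation lacks, and use of these starts in the cells was not tested. The Wnt7b region is an example, at 148 bp from the start of the lncRNA D130051D11Rik. Others found in all libraries were chr4:8647129-8647806, 11 bp from the lncRNA Gm8273, with folds of 9.912 to 17.64, chr6:117879172-117880036 at Gm38882 with 8.269 to 14.39, and chr17:17004672-17005294 at the predicted gene Gm51425. The last had folds of 12.81, 13.90, 9.726 and 9.223 in Brg1fl/+ and 8.227, 8.097, 8.272 and 7.750 in Brg1fl/fl replicates 1 to 4. These deposited folds did not overlap, but after centring on each library's median they did.

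In all 4 Brg1fl/+ and no Brg1fl/fl library, 11 far intergenic regions were found, or 1.037% of them, against a background of 0.404% of all combined regions (67 of 16566). The reverse pattern was found for 2 regions, or 0.1885%, against 0.169% (28 of 16566). In lists of 6271 peaks the counts were 5 of 266 (1.880%) against 0.577% and 1 of 266 (0.3759%) against 0.255%. The share of far intergenic regions with the first pattern was thus above the background in both sets of lists, without a test of the difference, and the share with the second was close to it in the deposited lists. The first count rose to 40 without Brg1fl/+ replicate 3 and to 19 without replicate 4, the libraries with the shortest lists of that genotype, and the second to between 4 and 7 without Brg1fl/+ replicate 1 or 2 or Brg1fl/fl replicate 2, 3 or 4. These counts with a library left out are given without a share over all combined regions.

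Of the 11 regions, chr6:9889948-9890152 stood apart, with folds of 34.72, 36.19, 35.21 and 34.76. It lay 282804 bp from any TSS, the farthest of all, with Nxph1 as its distant coding neighbour, and 84.29% of it consisted of mitochondrial words. At 205 bp it was narrower than the shortest peak of any Brg1fl/fl list, so that its absence there cannot be told apart from the minimum peak length. The other 10 were single-copy regions whose worst rank lay between 62.63% and 95.93% of the way down a list, and thus among weaker peaks. The region near Akap13, an anchoring protein of protein kinase A (chr7:75387904-75388386), had folds of 14.30, 12.25, 8.591 and 11.16 in Brg1fl/+ replicates 1 to 4, and AP-1 and NF-kB motifs. The tandem repeat near Sh3gl3 had folds of 8.768 to 10.74 and the region with an IRF motif near Ralgps2 folds of 8.924 to 10.17.

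The region upstream of Mef2a, a MADS box factor, at chr7:67414674-67415232, had folds of 11.17, 13.52, 5.840 and 7.778, and the region with NF-kB and STAT6 motifs 17375 bp upstream of Bmp2k, a kinase, had folds of 9.020, 7.499, 7.138 and 6.341. Further regions were those near Bmt2 with folds of 5.340 to 7.292, Dcn with 5.191 to 11.99, Xylt1 with 4.985 to 11.20 and H2al1j with 4.744 to 9.058. In 8 of the 9 single-copy regions named here Brg1fl/+ replicate 3 or 4, of lower background, had the lowest fold, and all rested on 7 to 53 fragments at the summit. The 2 regions with the reverse pattern both had other copies: the array region named above and chr2:75748079-75748680, with 11 copies, 43739 bp upstream of Nfe2l2 (the oxidative stress factor Nrf2), with folds of 4.861, 5.609, 5.690 and 6.721 in Brg1fl/fl libraries.

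**Figure D4:**
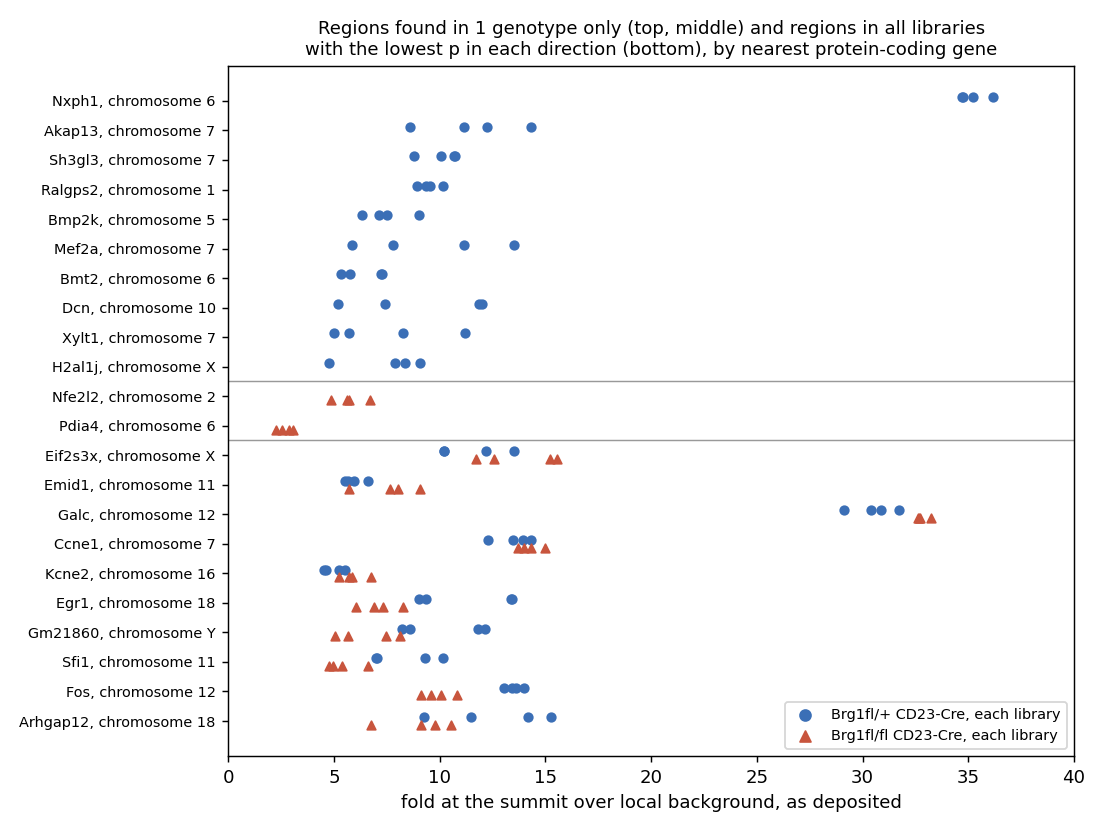
Fold at the summit over the local background (x axis) of far intergenic regions named by the nearest protein-coding gene, with a circle for each Brg1fl/+ and a triangle for each Brg1fl/fl library that detected the region. The top 10 were found in Brg1fl/+ libraries alone and the next 2 in Brg1fl/fl libraries alone, and of the bottom 10, found in all libraries, those named Egr1, Fos, Sfi1 and Gm21860 show every circle to the right of every triangle and that named Galc every circle to the left. After each library was centred on its median, circles and triangles overlapped in 4 of these 5 and stayed only just apart at Fos. The bottom 10 were picked by p from these same folds, so their separation adds no support, and no share over all regions tested is given.

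In the regions found in all 8 libraries, the height of the summit could be compared directly. limma was fitted to log2 of the fold over 4593 regions, each library centred on its median, and 152 (3.31%) were called higher and 99 (2.16%) lower in Brg1fl/fl (adjusted p at most 0.05). Of the 66 far intergenic regions among them, 2 (3.03%) were called higher and 0 lower, close to the background upward, and 9 had an unadjusted p of at most 0.05. Leaving out single libraries gave 0 calls (without Brg1fl/+ replicate 4 or Brg1fl/fl replicate 1 or 3) to 5 (without Brg1fl/+ replicate 3). With recovered fragments in place of the fold, 11 far intergenic regions were called higher and 2 lower of 62, where over all 4564 regions tested 422 (9.25%) were called higher and 162 (3.55%) lower. The median difference in fold of the 66 was 0.06 against 0.03 over all regions tested. It was above 0 in 42 regions (63.64%) and below in 24, where 55.50% of all regions tested lay above 0. This was not tested, and 15 of the 66 were near-identical members of the array on chromosome 6. Counts at an unadjusted p are given here without a share over all regions, so they cannot be read as a result about far intergenic regions. Without centring, the median over all regions moved to -0.17, the calls over all regions turned to 7 higher and 155 lower, and 0 far intergenic regions were called, 11 of them at an unadjusted p of at most 0.05. Directions given here are therefore relative to the median of each library.

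The region called with the lower p, chrX:94177795-94178274, lay 34616 bp downstream of Eif2s3x, a subunit of translation initiation factor eIF2. Its deposited fold was 13.53, 12.21, 10.22 and 10.19 in Brg1fl/+ and 15.54, 12.58, 15.24 and 11.73 in Brg1fl/fl replicates 1 to 4. The deposited values overlapped and the centred ones did not. The difference was 0.46 ± 0.11 (SE) on the log2 scale (limma, adjusted p = 0.01669), and it missed the threshold without Brg1fl/+ replicate 4 (adjusted p = 0.05330), Brg1fl/fl replicate 1 (0.06108) or Brg1fl/fl replicate 3 (0.05025). The other, chr11:5168576-5170353, lay 17208 bp upstream of Emid1, an extracellular matrix protein, and had folds of 5.934, 6.621, 5.536 and 5.643 in Brg1fl/+ and 7.627, 5.718, 9.059 and 8.021 in Brg1fl/fl libraries (0.55 ± 0.16, limma, adjusted p = 0.04035), and this call was lost on leaving out any library other than Brg1fl/+ replicate 3 or Brg1fl/fl replicate 2, with an adjusted p of up to 0.1244 (without Brg1fl/fl replicate 3). Its 1778 bp held summits up to 413 bp apart in different libraries, and the part of its tandem repeat in the alignment of reads was not tested.

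None of the other far intergenic regions passed. Of those with positive differences, the 3 of lowest p were the mitochondria-like region on chromosome 12 (0.31, limma, adjusted p = 0.0687), the CpG-rich region near Ccne1, the gene of cyclin E1 (0.28, adjusted p = 0.108), and the region near Kcne2, with 12 copies (0.44, adjusted p = 0.112). Of those with negative differences, the lowest p belonged to a region 26188 bp downstream of Egr1, an immediate early transcription factor, with deposited folds of 13.35, 13.42, 9.009 and 9.330 in Brg1fl/+ and 6.035, 7.314, 8.261 and 6.893 in Brg1fl/fl libraries. These deposited folds did not overlap, but after centring on each library's median they did (-0.36 in Brg1fl/+ replicate 4 against -0.34 in Brg1fl/fl replicate 2 on the log2 scale), and the centred difference was -0.44 (limma, adjusted p = 0.0721). A region 18532 bp upstream of Fos, an AP-1 subunit and also an immediate early gene, had folds of 13.43, 13.62, 13.04 and 14 against 10.84, 9.099, 9.612 and 10.08, without overlap (-0.25, limma, adjusted p = 0.197). After centring the groups stayed only just apart, with -0.02236 in Brg1fl/+ replicate 1 against -0.02571 in Brg1fl/fl replicate 2. Regions near Sfi1 (-0.41, adjusted p = 0.122), Gm21860 on chromosome Y (-0.44, adjusted p = 0.118) and Arhgap12 (-0.26, adjusted p = 0.217) completed the 5. All were picked by p from these same folds, so a lack of overlap adds no support. The share of regions without overlap over all regions tested is not given.

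Regions were also counted by their nearest protein-coding gene, at any distance, in lists of B cell genes and of genes of other cell types. The 64 regions counted lay 10561 to 1253908 bp from the TSS of that gene, the farthest of them from Zeb2, and most were detected in few libraries. Of 48 B cell transcription factor genes, 14 were the nearest protein-coding gene of at least 1 region, with 21 regions in all, and of these 18 were found only in Brg1fl/+, 0 only in Brg1fl/fl and 3 in both. Of 63 annotated genes of B cell receptors and signalling, 15 had 30 regions, of which 24, 0 and 6 were found in those sets. Over all 1061 regions the counts were 723, 104 and 234, and 428 of the 723 rested on Brg1fl/+ replicate 1 alone. Cell cycle and survival genes had 4 regions (3, 0 and 1) and SWI/SNF subunit genes 2, both with Arid1b as the nearest coding gene, at 86689 and 551813 bp. The list of 13 immunoglobulin constant region and J chain genes had none. Constant region genes have their own gene type in GENCODE, not protein-coding, so this count could not include them and says nothing about their loci. Of genes of other cell types, T cell genes had 3 regions and myeloid genes 4. The lists were chosen with earlier results of these data known.

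The genes with the most regions in these lists were Cd83, a marker of activated B cells, and Cxcr4, a chemokine receptor that positions B cells in germinal centers, with 5 each. The most widely detected Cd83 region, chr13:43765292-43765895, 19181 bp upstream of the gene, had folds of 5.146, 5.142 and 4.170 in Brg1fl/+ replicates 1, 2 and 4 and of 4.488 and 4.089 in Brg1fl/fl replicates 1 and 4. Another Cd83 region, chr13:43767677-43768001, held an AP-1 motif and was found in Brg1fl/+ replicates 1 and 2 with folds of 4.410 and 4.551. The 5 Cxcr4 regions were found only in Brg1fl/+ replicates 1 and 2, and 1 of them in both, chr1:128548659-128549162, with IRF, AP-1 and RUNX motifs. S1pr1, the receptor with which lymphocytes leave tissues, and Zeb2, a zinc finger repressor, had 4 regions each. A region 76340 bp from Prdm1, the gene of the plasma cell regulator Blimp-1, was found in 3 Brg1fl/+ and no Brg1fl/fl library, with folds of 4.762, 5.955 and 4.104 (chr10:44380588-44381151).

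Listed genes had 10 regions found in at least 4 libraries. The region 21570 bp downstream of Icosl, the gene of the ligand with which B cells engage ICOS on T cells, was found in all 4 Brg1fl/+ libraries (12.60, 10.89, 12.45 and 12.58) and in Brg1fl/fl replicate 3 (8.297). It held the NF-kB and EBF1 matches printed above, and the start of a RefSeq lncRNA, Gm30039, lay 149 bp from its centre. The region upstream of Ccr7, a chemokine receptor that guides B cells to the T cell zone, was found in Brg1fl/+ replicates 1, 2 and 4 (8.765, 11.31 and 9.004) and Brg1fl/fl replicates 3 and 4 (6.096 and 9.626), and likewise lay at a lncRNA start and held an NF-kB motif. The region 86689 bp from Arid1b, a BAF subunit, was found in all 4 Brg1fl/+ libraries (6.873 to 9.797) and in Brg1fl/fl replicate 3 (5.690). The region near Socs3, an inhibitor of cytokine signalling, was found in 3 Brg1fl/+ libraries and 1 Brg1fl/fl library, and so was a region 175789 bp from Foxo1, a forkhead factor. Found in more Brg1fl/fl than Brg1fl/+ libraries were 2 regions. The region near Cish, a STAT-induced inhibitor of cytokine signalling, was found in 2 Brg1fl/+ and 3 Brg1fl/fl libraries (folds of 3.739 to 8.315). The region 102544 bp from Gata3, a T cell factor, was found in 1 and 3 (folds of 4.346 to 5.188). The regions near Egr1 and Ccne1 were found in all 8. None of these presence patterns was tested or set against the share over all far intergenic regions in at least 4 libraries. All folds rested on 7 to 130 fragments.

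Motifs set far intergenic regions apart from promoters, and less so from the other classes. For each library, the percent of far intergenic peaks with a motif within 100 bp of the summit was set against that of the other classes in the same library, and the differences were tested over the 8 libraries (two-sided exact permutation by sign changes, smallest p 0.0078, Benjamini-Hochberg over 54 comparisons). The libraries shared regions, so these p-values cover only the spread between libraries and say nothing of the sampling of regions. With all regions 29 comparisons passed 0.05, and with single-copy regions alone 27. The values that follow are means over the 8 libraries for single-copy regions, whose adjusted p was 0.0201 unless given.

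The AP-1 motif, bound by factors induced on activation, was found in 11.39% of far intergenic peaks and 1.814% of promoter peaks, 7.852% of near intergenic peaks and 7.623% of deep intronic peaks (exact permutation, adjusted p = 0.0325 for the last), so that it exceeded all other classes. RUNX (TGTGGTT), a lineage factor of blood cells, was found in 8.108% against 1.609% of promoter and 5.577% of near intergenic peaks. NF-kB motifs were found in 10.85% against 4.066% of promoter and 7.033% of deep intronic peaks (adjusted p = 0.0469 for the latter). The composite element of PU.1 with IRF4 or IRF8, called EICE (GGAANNGAA), was found in 8.541% against 3.762% of promoter peaks. EBF1 (TCCC and GGGA with 2 letters between) was found in 3.032% against 0.6616%, the octamer (ATGCAAAT) in 3.699% against 1.222%, and MEF2 in 2.567% against 0.3749% of promoter peaks. The E2A E-box (CAGCTG) was found in 13.59% against 8.413%.

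Motifs common at promoters were rarer in far intergenic peaks. SP1 was found in 26.29% against 72.14% of promoter and 37.55% of near intergenic peaks, but in more than the 14.76% of deep intronic peaks. The ETS motif (CCGGAAGT) was found in 1.580% against 8.513% of promoter peaks, YY1 (AANATGGCG) in 0.2713% against 5.110%, E2F (GCGGGAA) in 3.726% against 7.680% and the MYC E-box (CACGTG) in 5.657% against 9.491%. STAT6 (TTC and GAA with 4 letters between) was found in 4.214% of far intergenic and 8.837% of deep intronic peaks, and CTCF in 0.9458% against 1.840% of near intergenic peaks. Shares for PU.1 alone (GAGGAAGT), IRF (GAAANNGAA), FOXO (TGTTTAC), STAT6 and CTCF did not pass against promoters. PU.1 was rarer in far intergenic than in deep intronic peaks (2.632% against 4.723%, exact permutation, adjusted p = 0.03245). Deep intronic peaks held less EICE (5.953%) and EBF1 (1.732%) than far intergenic peaks (exact permutation, adjusted p = 0.03245 for each). They also held less E2F (0.7482%). A match is a run of letters and not evidence that a factor binds.

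**Figure D5:**
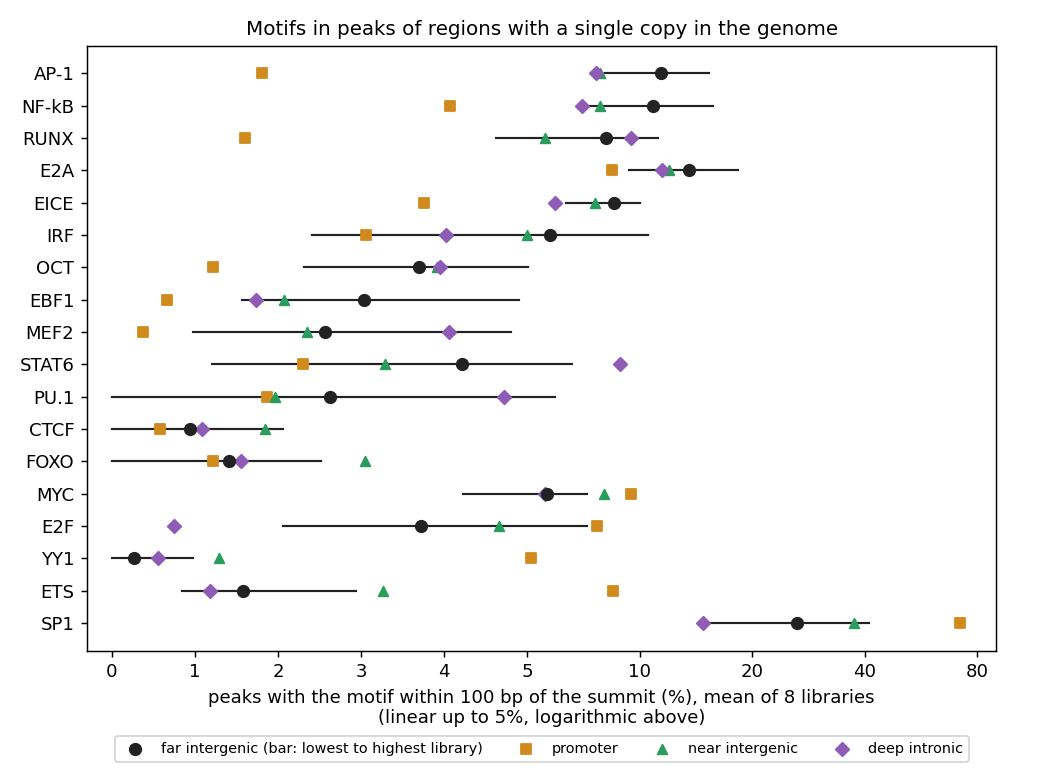
Percent of peaks with each of 18 motifs within 100 bp of the summit (x axis, linear to 5% and logarithmic above), for single-copy regions, as the mean over 8 libraries in 4 classes, with a bar from the lowest to the highest library for far intergenic peaks. For AP-1 the far intergenic mean of 11.39% stands to the right of the other 3 classes, and for SP1 the mean of 26.29% stands between deep intronic and near intergenic peaks.

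Multi-copy sequences changed the RUNX result. Each of the 15 regions of the 4.5S RNA array found in all libraries held the RUNX letters, out of 112 far intergenic regions with that motif. With these and other multi-copy regions, RUNX was found in 13.85% of far intergenic and 7.163% of deep intronic peaks (exact permutation, adjusted p = 0.0176), and without them in 8.108% and 9.478% (adjusted p = 0.1665), so the direction against deep intronic peaks turned. The comparisons with promoters and near intergenic peaks kept their direction.

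Across all 1061 regions and each region's strongest peak, 166 held an E2A motif, 149 SP1, 140 AP-1, 112 RUNX, 94 NF-kB, 91 EICE, 90 IRF, 52 PU.1, 47 STAT6, 19 CTCF and 16 EBF1. In 341 regions none of the 18 motifs was found, and in 91 regions 3 or more.

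Between genotypes 0 of the 18 motif shares passed after adjustment, and 4 had the smallest possible p of 0.0286 (exact permutation, adjusted p = 0.129), all lower in Brg1fl/fl. PU.1 motifs were found in 5.556%, 4%, 2.985% and 2.551% of far intergenic peaks of Brg1fl/+ replicates 1 to 4 and in 1.626%, 0%, 1.010% and 0.4926% of those of Brg1fl/fl replicates 1 to 4. NF-kB motifs were found in 9.864%, 9.895%, 13.43% and 13.27% against 6.911%, 6.015%, 7.576% and 7.882%. For both motifs every Brg1fl/+ library lay above every Brg1fl/fl library, but the Brg1fl/+ libraries with long lists had the higher PU.1 and the lower NF-kB shares. Far intergenic peaks numbered 882, 475, 134 and 196 in Brg1fl/+ and 246, 133, 198 and 203 in Brg1fl/fl lists. The low PU.1 shares thus rest on few peaks. The mean EICE share was 8.287% ± 0.8769 against 5.528% ± 0.5547 and the mean STAT6 share 4.737% ± 0.7722 against 2.316% ± 1.2 (SD, n = 4 each). With single-copy regions alone, 0 passed, and PU.1, EICE, STAT6, RUNX (10.34% against 5.877%) and YY1 had the smallest possible p.

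In sequence and signal, far intergenic peaks stood between promoters and deep introns. The median fold at the summit, averaged over the 8 libraries, was 6.481 (5.349 to 7.598) against 10.03 at promoters and 5.707 in deep introns, and the GC content 54.29% against 67.41% and 52.05%. The CpG ratio was 0.4086 against 0.8900 at promoters, 0.5604 in near intergenic and 0.2004 in deep intronic peaks. Each of these differences had the same sign in all 8 libraries (exact permutation by sign changes, adjusted p = 0.0117 over 12 comparisons, of which 9 passed). As for motifs, the libraries shared regions, so p covers only the spread between libraries. Median fold and median width did not pass against near intergenic peaks (6.687 and 380.9 bp against 6.481 and 377.1 bp).

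Regions on both sides of the limits of the rule were as follows. The 3 regions just beyond 10 kb lay 10002, 10031 and 10055 bp from a TSS and were found in 3, 1 and 5 libraries, and the 3 just within lay 9978, 9983 and 9992 bp away and were found in 1, 4 and 2. Among them chr9:108201183-108201478, at 9983 bp, was found in all 4 Brg1fl/+ and no Brg1fl/fl library and is not counted above. At the limit on masked bases, the 3 regions kept had 49.13%, 49.20% and 49.28% masked bases and those left out 50.18%, 50.43% and 50.44%.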

How the data were processed

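By the labels and the study's methods, the authors used Bowtie2 to align ATAC-seq reads to mm10 and MACS2 to call peaks, 1 list per library. Versions, options and the handling of duplicate and mitochondrial reads are not given in the sources used here. The deposited values of a peak are a ratio, its summit fold relative to background nearby in that library, the −log10 p and the −log10 q of this enrichment, a whole-number score made from the latter, and the position of the summit. The 8 RNA-seq samples, the authors' coverage and their comparison with DESeq2 were not used here.

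Detection, width and motif shares were compared with two-sided exact permutation tests over all 70 assignments of the 8 libraries, or over sign changes for classes within a library. limma 3.58.1 (R 4.3.3), with a trend, was fitted to log2 fold over regions found in all libraries, and p-values were adjusted by Benjamini-Hochberg over all of them. The permutation test between genotypes, the limma fit and the recovery of fragments, described next, were tested on simulated data. Fragments at the summit were recovered from the fold and −log10 p, to within 0.002 of the deposited −log10 p, for 99.69% to 99.79% of peaks, and regions of very high fold had no value. The lists hold no read totals, so no interval for counting error was given, and precision is limited by 4 libraries a genotype. Copies in the genome were searched only in the assembled chromosomes and the mitochondrial genome, with minimap2 2.31-r1302. Sequences at given positions were read with pysam 0.24.0. RefSeq starts (GRCm38.p6) and sequences of GRCm38 came from the reference. The 52 regions on scaffolds without a masked value were left out of the class.

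The members, gene lists and rules were chosen with earlier results of these data known. Regions named were the 10 found in all libraries with the best worst rank by q, those found in all libraries of 1 genotype and none of the other, the limma calls or the 5 lowest p-values a direction, those near a listed gene in at least 4 libraries, and the 3 on each side of each limit. Of these, 1 region is counted but not reported here. The other Cd83, Cxcr4 and Prdm1 regions, the tRNA regions, those at RefSeq starts and the array were singled out after their values were seen. Alternatives were a minimum −log10 q of 5 or 10, equal list lengths, 50% of a region covered, at least 2 libraries, coding TSS only, over 50 kb, at most 25% masked, no Y, no mitochondrial sequence, a motif window of 250 bp, other scalings, joined pairs of libraries, the replicate block and each library left out. Those without multi-copy regions and without RefSeq starts were added after the data were seen.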

Additional observations from a re-analysis of the deposited data

Results flagged for a closer look

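Single libraries stood far from the other 3 of their genotype in 3 of 70 groups of 4 examined (a gap to the nearest library beyond Dixon's critical value). Chance flags about 1 in 20 such groups, and these 3 are fewer than that.

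The MEF2 motif share of far intergenic peaks was 0.7519% in Brg1fl/fl replicate 2 and 1.478% to 1.626% in the other Brg1fl/fl libraries. At the region near Eif2s3x (chrX:94177795-94178274), the centred log2 fold was 0.0673 in Brg1fl/fl replicate 4 and 0.4414 to 0.4697 in the other Brg1fl/fl libraries. At the mitochondria-like region chr12:97061434-97061786, the centred log2 fold was 1.818 in Brg1fl/fl replicate 2 and 1.540 to 1.586 in the others.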

How the results depend on the processing

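Of 397 recomputed values, 325 kept their direction and their side of the threshold or moved little. The width difference was 84.25 bp with a −log10 q of at least 10 (exact permutation test, p = 0.05714), 59.38 bp with equal list lengths (p = 0.2857), 74.50 bp in regions of at least 2 libraries (p = 0.1429) and 100 bp with libraries joined in pairs (p = 0.3333, where 2 against 2 cannot reach the threshold). The difference in share of the list was -0.9817 points with a −log10 q of at least 10 (exact permutation test, p = 0.02857), and that in fold relative to promoters -0.1269 with 50% of a region covered (p = 0.02857).

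The gap to deep intronic regions turned to 2.293 points with a −log10 q of at least 10, 2.362 with equal list lengths, 0.1604 with coding TSS only, 6.743 beyond 50 kb (exact permutation test, p = 0.1143) and 0.8152 in single-copy regions. The gap to near intergenic regions turned to 0.09985 with coding TSS only, to 6.697 beyond 50 kb (exact permutation test, p = 0.02857) and to 0.06567 without Brg1fl/fl replicate 1. Without multi-copy regions the RUNX difference from deep intronic peaks was -1.369 points. The cause of each change was not tested.

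Regions found in all Brg1fl/+ and no Brg1fl/fl libraries numbered 6 with a −log10 q of at least 5, 5 with at least 10, 5 with equal lists, 6 with 50% covered, 3 beyond 50 kb and 54 with libraries joined in pairs. The reverse count was 1, 0, 1, 1, 0 and 21 in these, 5 with coding TSS only, 1 with at most 25% masked bases and 0 in single-copy regions. The number of far intergenic regions differed between settings, with 157 beyond 50 kb and 1618 with coding TSS only. Apart from equal lists, these counts are given without a share over all combined regions, so they show no excess in either genotype. limma called 0 far intergenic regions without centring, 13 with recovered fragments and 1 with the replicate block.

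Leaving out each library in turn gave -30.35 to -11.40 points for detection, -1.901 to -0.6007 for share, -15.24 to -8.980 for the gap to promoters, -1.688 to 0.06567 for that to near intergenic and -2.032 to -0.8587 for that to deep intronic regions, -0.08490 to -0.02488 for fold, 87.83 to 106.2 bp for width, 11 to 40 and 2 to 7 for the counts of regions in 1 genotype, and 0 to 5 for limma calls. The range was 0 to 0 motifs between genotypes, 24 to 27 between classes and 9 to 10 properties.

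Replicate numbers did not pair the libraries: the correlations of same-numbered libraries' deviations were 0.0126, -0.09118, -0.03724 and -0.0505. With the number as a block the width difference of 95.88 bp had p = 0.125 (exact permutation within pairs), the smallest 4 pairs allow, the call near Emid1 was lost (limma, adjusted p = 0.05532), and no other call changed. Depth limits what can be said of regions found in few libraries: a missing peak is not evidence of closed chromatin, and the shallowest list found 12.25% of the far intergenic regions.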
